A study of Homo sapiens with 41 samples.

Results

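The independently transcribed U3, U8 and U13 small nucleolar RNA (snoRNA) genes are SNORD3A, SNORD3B-1, SNORD3B-2 and SNORD3C for U3, SNORD118 for U8 and SNORD13 for U13. These 6 genes were examined among 64486 annotated gene records, and an Elongin A peak was assigned to a gene when any base of the peak lay within 1 kb of it. The genes were chosen by the peaks of these lists near them, so the presence, rank and position of their peaks are given as a description with no test. Peaks were present at 4 of the 6 genes in the goat antibody CUT&RUN list, at 3 in the mouse antibody CUT&RUN list and at 4 in the ChIP-seq list. Among all annotated genes the share with a peak within 1 kb was 9.89%, 3.54% and 0.381% in the same order. SNORD3B-1, SNORD3B-2 and SNORD118 had a peak in all 3 lists, SNORD13 in the goat antibody and ChIP-seq lists, and SNORD3A and SNORD3C in none. SNORD3B-1 was counted only through the peaks on SNORD3B-2. Among all annotated genes, 82 of 64486 (0.127%) had a peak in all 3 lists.

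SnoRNAs are stable nuclear RNAs that guide or assist the processing and modification of ribosomal RNA in the nucleolus. Most human snoRNAs are cut from the introns of host genes, whereas U3, U8 and U13 are made from promoters of their own by RNA polymerase II (RNAPII), with promoters that resemble those of the spliceosomal snRNAs. U3 is needed for the early cleavages that release the small-subunit ribosomal RNA, U8 for maturation of the large-subunit ribosomal RNAs, and U13 takes part in acetylation of the small-subunit ribosomal RNA. All of them carry the box C and box D elements that bind a common set of core proteins.

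Elongin A is the largest subunit of the Elongin complex, which stimulates transcription elongation by RNAPII in vitro. It was mapped in DLD1 cells, a human colon cancer cell line, which were wild type and received no siRNA. Cells were fixed with formaldehyde for CUT&RUN, in which an antibody directs a nuclease to cut out the chromatin near its target, and chromatin was immunoprecipitated with an Elongin A antibody for ChIP-seq. Behind the goat antibody list are 2 CUT&RUN replicates, with 1 goat IgG library as their control. The mouse antibody list rests on 1 sample set against mouse IgG, and ChIP-seq on 1 sample set against its input. The lists held 8720, 2338 and 186 peaks in this order, with a median fold enrichment over control of 4.32, 4.36 and 9.99. Together these are 7 of the 41 samples of the series. No list separates the goat antibody replicates and the read depth is unknown, so no value has a replicate error and fold enrichment was compared within a list only. As a check of the cell line, 6 of 8 colon epithelial marker genes (CDH1, CDX2, EPCAM, KRT18, KRT8 and SOX9) had a peak within 1 kb in the goat antibody list, 3 in the mouse antibody list and 1 in the ChIP-seq list. Among all protein-coding genes the share was 21.7%, 7.79% and 0.783%. Of 4 markers of other cells, PTPRC, a leukocyte surface gene, had a peak in both CUT&RUN lists and no marker had one by ChIP-seq. The lists hold no RNA values, so the transcription of the snoRNA genes was not measured here.

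The U3 genes lie on chromosome 17 (hg19). SNORD3B-1 (chr17:18965225-18965982, plus strand) and SNORD3B-2 (chr17:18966659-18967449, minus strand) face each other, with their RNA starts 2224 bp apart. SNORD3A (chr17:19091329-19092027, plus strand) and SNORD3C (chr17:19092978-19093558, minus strand) form the same arrangement, with starts 2229 bp apart. Between these pairs lies another U3 sequence, at the place where RefSeq orders SNORD3D, which GENCODE records only as a long noncoding RNA (ENSG00000262202, chr17:19015313-19015949, minus strand). It is called the U3 copy at SNORD3D here, is not among the 6, and was added after its peaks had been seen. U8 (SNORD118, chr17:8076772-8076905, minus strand) lies inside the 3′ untranslated region of 2 transcripts of TMEM107, a gene of a ciliary membrane protein on the same strand, 2812 bp from the start of TMEM107.

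The U3 sequence is shown because its copies are nearly identical, which limits how surely a read can be assigned to 1 of them. The RNA of SNORD3A is given 5′ to 3′ (chr17:19091329-19091545, hg19, plus strand), followed by the 100 bases before it (chr17:19091229-19091328). Capitals mark the bases that differ in at least 1 of the other 4 U3 genes.
SNORD3A RNA: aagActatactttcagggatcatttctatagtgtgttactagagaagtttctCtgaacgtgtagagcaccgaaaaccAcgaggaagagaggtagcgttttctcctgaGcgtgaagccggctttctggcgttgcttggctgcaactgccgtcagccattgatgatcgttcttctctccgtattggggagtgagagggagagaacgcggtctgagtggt
SNORD3A promoter: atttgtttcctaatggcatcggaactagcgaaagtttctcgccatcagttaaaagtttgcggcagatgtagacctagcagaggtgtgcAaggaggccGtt

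Counted from 1 at the first base of the RNA, with the base of SNORD3A written first, SNORD3B-1 and SNORD3B-2 each differed by A78C and SNORD3C by G108A. The U3 copy at SNORD3D differed by A4G, C53T and A78C. The 4 listed U3 genes were 99.1 to 100% identical to each other over the 217 bases of the RNA. Identity in the flanks is given as identical bases of the 500 in a window, so bases opposite a gap count as not identical. It was 96.4 to 100% over the 500 bp before the RNA and 96.8 to 100% over the 500 bp past its end. Over the next 500 bp it was 72.6 to 99.4%, and the lowest pair, SNORD3B-1 and SNORD3B-2, had 363 identical bases in 578 alignment columns.

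At SNORD3B-2, the U3 gene with peaks of its own, all 3 lists placed the summit past the end of the RNA. The goat antibody peak (chr17:18966646-18967268) had a fold enrichment of 6.56, rank 748 of 8720, with its summit 303 bp from the RNA start and 87 bp past the RNA end. The mouse antibody peak (chr17:18966788-18967193) had a fold enrichment of 7.65, rank 27 of 2338, with its summit 512 bp from the start. The ChIP-seq peak (chr17:18966818-18967330) had a fold enrichment of 20.4, rank 24 of 186, with its summit 299 bp from the start and 83 bp past the end. The goat antibody and ChIP-seq summits were thus 4 bp apart, and the mouse antibody summit stood 209 bp farther from the gene start than the goat antibody one. Over the whole lists, 79 pairs of a goat antibody and a ChIP-seq peak overlapped, with a median gap between summits of 188 bp. The pair at SNORD3B-2 was the only one of these with a gap of 5 bp or less. Most positions under its 2 peaks hold a 32 bp word with further copies in hg19, as given below. The effect of these copies on the summit positions was not tested. Ranked by q-value, the goat antibody peak stood at 142 and the ChIP-seq peak at 43 of its list.

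SNORD3B-1 had no peak on its own record. It was counted because the peaks on SNORD3B-2 end 664 bp away in the goat antibody list, 806 bp in the mouse antibody list and 836 bp in the ChIP-seq list, and their summits lie 1712 to 1925 bp from its RNA start. Without a window, SNORD3B-1 had no peak in any list. These were the member distances nearest to the limit of 1 kb from inside. From outside, the nearest peak in any list was 16332 bp from SNORD118, so no gene stood just beyond the limit.

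**Figure D1:**
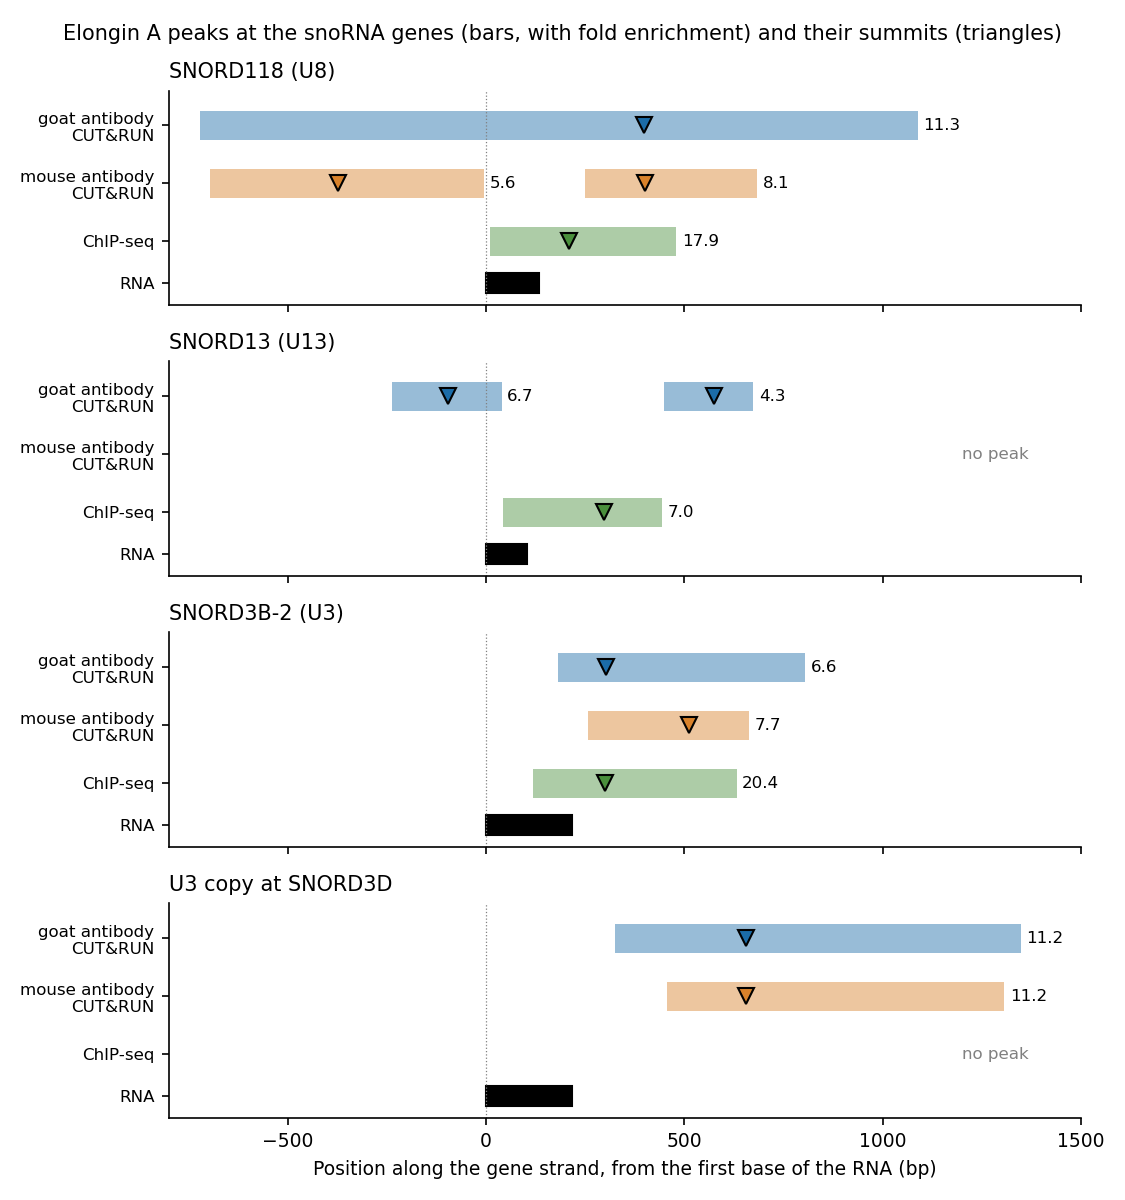
Peaks (bars, labelled with fold enrichment) and summits (triangles) of the 3 lists at 4 genes, by distance in bp from the first base of the RNA along the gene strand; the black box is the RNA. No summit falls within an RNA, the ChIP-seq summits sit 209 to 299 bp from the start, and at SNORD13 the ChIP-seq peak fills the space between the 2 goat antibody peaks.

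SNORD3A and SNORD3C had no peak in any list, and the nearest peaks to them were those of other U3 genes. In the goat antibody list the nearest peak was that of the U3 copy at SNORD3D, 75705 bp from SNORD3A and 77354 bp from SNORD3C. In the ChIP-seq list it was that of SNORD3B-2, 123999 and 125648 bp away. The U3 copy at SNORD3D itself had strong CUT&RUN peaks. Its goat antibody peak (chr17:19014602-19015624) had a fold enrichment of 11.2, rank 49 of 8720, and its mouse antibody peak (chr17:19014643-19015494) one of 11.2, rank 2 of 2338. Both summits were on the same base, 656 bp from the RNA start and 440 bp past its end. No ChIP-seq peak lay within 1 kb of it, and the nearest, 47983 bp away, was the peak of SNORD3B-2. Counting only peaks that overlap a gene record, 2 of the 5 U3 genes, SNORD3B-2 and the U3 copy at SNORD3D, had a peak in each CUT&RUN list and 1, SNORD3B-2, in the ChIP-seq list.

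Sequence copies were counted to see which of these positions hold sequence that occurs once. For each position the number of exact occurrences in hg19, on both strands, was counted for the word of 32 bp that starts there. Under the goat antibody peak at SNORD3B-2, 72 of 623 positions had a word that occurs once (11.6%), under the mouse antibody peak 60 of 406 (14.8%) and under the ChIP-seq peak 60 of 513 (11.7%). These peaks overlap, and with each position counted once 72 of 685 (10.5%) had such a word. With words of 50 bp the share was 19.3% and with words of 100 bp 41.2% of the 685 positions. By contrast, 93.6 to 100% of positions under the SNORD118 peaks and 72.6 to 93.8% under the SNORD13 peaks had a word that occurs once. The median number of copies in the RNA and in the 500 bp before it was 5 for each U3 gene.

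Every summit at a U3 gene lay on sequence that occurs once, and whether the copies set these positions was not tested. The goat antibody and ChIP-seq summits at SNORD3B-2 both fell in a stretch of 67 bp covered by words with a single occurrence, and the mouse antibody summit in another of 55 bp. The CUT&RUN summits at the U3 copy at SNORD3D fell in a stretch of 51 bp. Over all peaks, the word at the summit occurred more than once for 277 of the goat antibody peaks (3.18%), 123 of the mouse antibody peaks (5.26%) and 8 of the ChIP-seq peaks (4.3%). The sequence around the SNORD3B-2 summit is shown for the bases that set it apart (chr17:18967097-18967200, hg19, minus strand, 5′ to 3′), with capitals for those that differ in at least 1 of the other 4 U3 genes.
SNORD3B-2 summit: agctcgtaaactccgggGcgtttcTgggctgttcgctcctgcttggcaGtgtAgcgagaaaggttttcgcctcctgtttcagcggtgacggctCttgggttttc

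Of its 104 bases, 5 differed in at least 1 other U3 gene and 2, at positions 49 and 53, differed in all 4. The ChIP-seq summit was at position 51 and the goat antibody summit at position 55, so the summits lay within a few bases of the only letters in this window that are particular to SNORD3B-2.

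**Figure D2:**
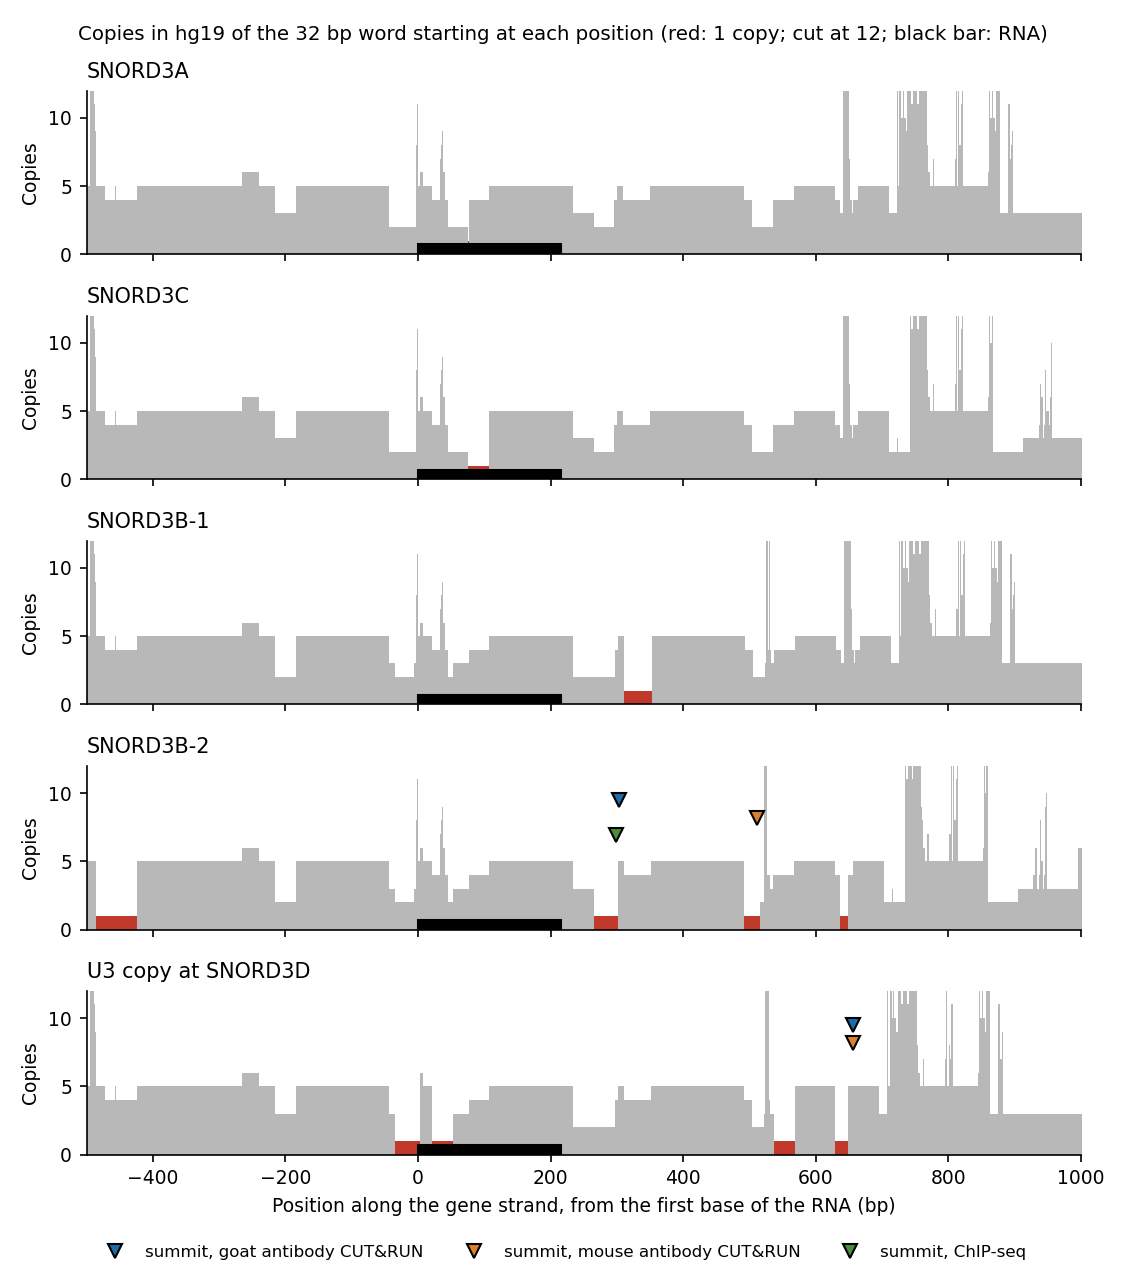
Number of exact copies in hg19 of the 32 bp word starting at each position along 5 U3 genes, in bp from the first base of the RNA; red marks words with 1 copy, grey words with more (drawn up to 12), the black bar the RNA and triangles the summits. SNORD3A and SNORD3C have no red past the RNA, and the summits at SNORD3B-2 and at the U3 copy at SNORD3D each stand within the 32 bp that begin at a red position.

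Words that occur once were also counted along the genes without peaks. In the 300 bp past the RNA end, where the SNORD3B-2 summits of all 3 lists lay, SNORD3B-2 had 60 positions with a word of 32 bp that occurs once, or 20%. SNORD3A and SNORD3C had 0 of 300 each, also with words of 100 bp. SNORD3B-1 had 42 of 300, in 1 stretch of 73 bp, and had no peak on its own record. The U3 copy at SNORD3D had 0 in the same 300 bp and 52 in the next 300 bp, where its summits lay. Within the RNA, 2 of 217 positions had a word that occurs once in SNORD3A, 32 in SNORD3C, 36 in the U3 copy at SNORD3D, and none in SNORD3B-1 or SNORD3B-2. With words of 100 bp these counts within the RNA were 70 in SNORD3A, 100 in SNORD3C, 53 in the U3 copy at SNORD3D, 0 in SNORD3B-1 and 19 in SNORD3B-2. The RNAs of SNORD3A and SNORD3C thus held more such positions than that of SNORD3B-2, and the stretch past the RNA end fewer. Reads were mapped in pairs, and where a pair could be placed was not examined. The methods state no filter on mapping quality and do not say how reads that fit several copies were assigned. Past the RNA end of SNORD3A and SNORD3C, low occupancy and an effect of reads that fit several copies cannot be told apart. Whether signal of these genes was placed at the other copies was not tested.

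The U8 gene SNORD118 had the strongest goat antibody peak of the 6 genes. That peak (chr17:8075817-8077628) was 1812 bp wide against a median of 362 bp in its list, covered the whole gene, and had a fold enrichment of 11.3, rank 47 of 8720, with a −log10 q-value of 59.4. Its summit lay 399 bp from the RNA start and 266 bp past the RNA end. In the mouse antibody list 2 peaks lay on either side of the RNA and left it free. The downstream peak (chr17:8076222-8076656) had a fold enrichment of 8.08, rank 19 of 2338, with its summit 401 bp from the start. The upstream peak (chr17:8076912-8077601) had a fold enrichment of 5.59, rank 280, with its summit 375 bp before the start. The free stretch between them was 255 bp long, and 132 of the 134 positions of the RNA within it had a word of 32 bp that occurs once.

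The ChIP-seq peak at SNORD118 (chr17:8076426-8076896) had a fold enrichment of 17.9, rank 34 of 186, and its summit lay nearer to the RNA, 209 bp from the start and 76 bp past the end. The goat and mouse antibody summits downstream of U8 were 2 bp apart, whereas the ChIP-seq summit was 190 bp from the first and 192 bp from the second. A gap of 5 bp or less was found for 6.19% of the 759 overlapping pairs of goat and mouse antibody peaks, whose median gap was 65 bp. All of these peaks also overlap the TMEM107 exon that holds U8, and signal of U8 and of TMEM107 cannot be told apart in them. Their summits were 2437 to 3213 bp from the start of TMEM107.

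The U13 gene SNORD13 (chr8:33370993-33371096, plus strand) starts 290 bp from the start of TTI2, a cofactor in the assembly of PI3K-related kinases that is transcribed in the opposite direction. Its strongest goat antibody summit lay on the promoter side of the RNA, unlike those of SNORD118 and SNORD3B-2. Its stronger goat antibody peak (chr8:33370756-33371031) had a fold enrichment of 6.68, rank 670 of 8720, with its summit 96 bp before the RNA start and 194 bp from the start of TTI2. By q-value it ranked 45, with a −log10 q-value of 37.4, although it was only 276 bp wide. This summit lay between the starts of SNORD13 and TTI2, and signal of these genes cannot be told apart in it. A weaker goat antibody peak (chr8:33371441-33371666) had a fold enrichment of 4.30, rank 4499, with its summit 575 bp past the RNA start. The ChIP-seq peak (chr8:33371035-33371435) had a fold enrichment of 7.03, rank 127 of 186, with its summit 296 bp from the start. It overlapped neither goat antibody peak and filled the space between them, with 3 free bases on one side and 5 on the other. No mouse antibody peak lay within 1 kb, and the nearest was 20053 bp away.

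**Figure D3:**
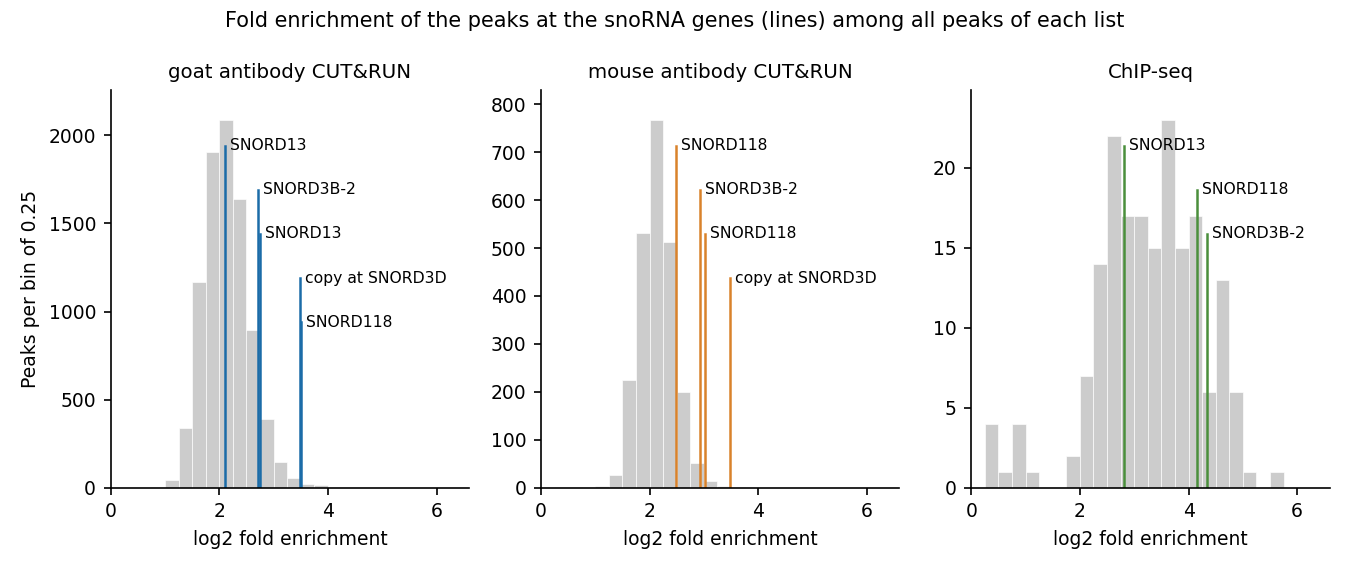
Distribution of log2 fold enrichment over all peaks of each list (grey, peaks per bin of 0.25) with the peaks at the snoRNA genes as labelled lines; "copy at SNORD3D" is the U3 copy of that name. The peaks of SNORD118 and SNORD3B-2 lie in the upper part of each list, while the ChIP-seq peak of SNORD13 and its second goat antibody peak lie in the lower or middle part.

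Within each list, the strongest peak of each gene with a peak within 1 kb stood at a median percentile of fold enrichment of 91.9 in the goat antibody list (4 genes), 98.8 in the mouse antibody list (3 genes) and 84.4 in the ChIP-seq list (4 genes), with the peak on SNORD3B-2 counted for SNORD3B-1 too. SNORD118 stood at 99.5, 99.2 and 81.7, SNORD3B-2 at 91.4, 98.8 and 87.1, and SNORD13 at 92.3 in the goat antibody list and 31.7 in the ChIP-seq list.

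Other snoRNA genes were compared by the same rule. Among all 1458 snoRNA records the share with a peak was 6.58% in the goat antibody list, 1.3% in the mouse antibody list and 0.343% in the ChIP-seq list. For box C/D snoRNA genes with a SNORD symbol outside the 6, most of which lie in introns of host genes, 59 of 382 (15.4%) had a goat antibody peak within 1 kb. For 7 (1.83%) there was a mouse antibody peak, namely SNORD102, SNORD12, SNORD12B, SNORD70, SNORD72, SNORD78 and SNORD99, and 0 had a ChIP-seq peak. Of the 5 snoRNA records with a ChIP-seq peak, 4 were among the 6 genes, with SNORD3B-1 counted through the peak on SNORD3B-2.

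The remaining one was a record named U3 in an intron of TEX14, a gene of intercellular bridges in germ cells (ENSG00000212195, chr17:56709003-56709197, minus strand, as TEX14). It was singled out after its values had been seen. Its ChIP-seq fold enrichment of 28.2 ranked 7 of 186, its goat antibody one of 12.2 ranked 34 of 8720 and its mouse antibody one of 8.65 ranked 12 of 2338, each above the SNORD118 and SNORD3B-2 peaks of the same list. The summits lay 348, 407 and 408 bp from the start of the record in this order. Aligned to SNORD3A, 151 of the 217 bases of U3 RNA were identical (69.6%), as were 61 of the 100 bases before it. The other 80 records named U3 and all 26 records named U8 had no peak in any list. Of 464 records named snoU13, 3 had a goat antibody peak, 1 a mouse antibody peak and none a ChIP-seq peak.

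The genes of U7, the snRNA of histone mRNA 3′ end processing, and of the spliceosomal snRNAs made by RNAPII use the same kind of promoter. They were counted too. Of the 14 such genes matched in the annotation, 12 had a goat antibody peak, 10 a mouse antibody peak and 11 a ChIP-seq peak. Those with a peak in all 3 lists were RNU1-1, RNU1-2, RNU2-2P, RNU4-1, RNU4-2, RNU5A-1, RNU5B-1, RNU5D-1, RNU5E-1 and RNU5F-1, which encode U1, U2, U4 and U5 snRNAs. Their strongest ChIP-seq summits lay past the RNA end in 11 of 11 genes, 182 to 331 bp from the RNA start. The ChIP-seq summits of SNORD118, SNORD13 and SNORD3B-2, at 209, 296 and 299 bp, were within this range. Sequence copies were not counted along the snRNA genes, so their effect on these summit positions was not tested. In the goat antibody list 11 of 12 snRNA summits were past the RNA end, and in the mouse antibody list 6 of 10, with the other 4 before the start. Genes of the related RNA polymerase III promoter class, such as the U6 genes, were counted in the same way. Of 9 records, RNU6-7 and RNU6-8 had a goat antibody peak, and none had a mouse antibody or ChIP-seq peak.

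**Figure D4:**
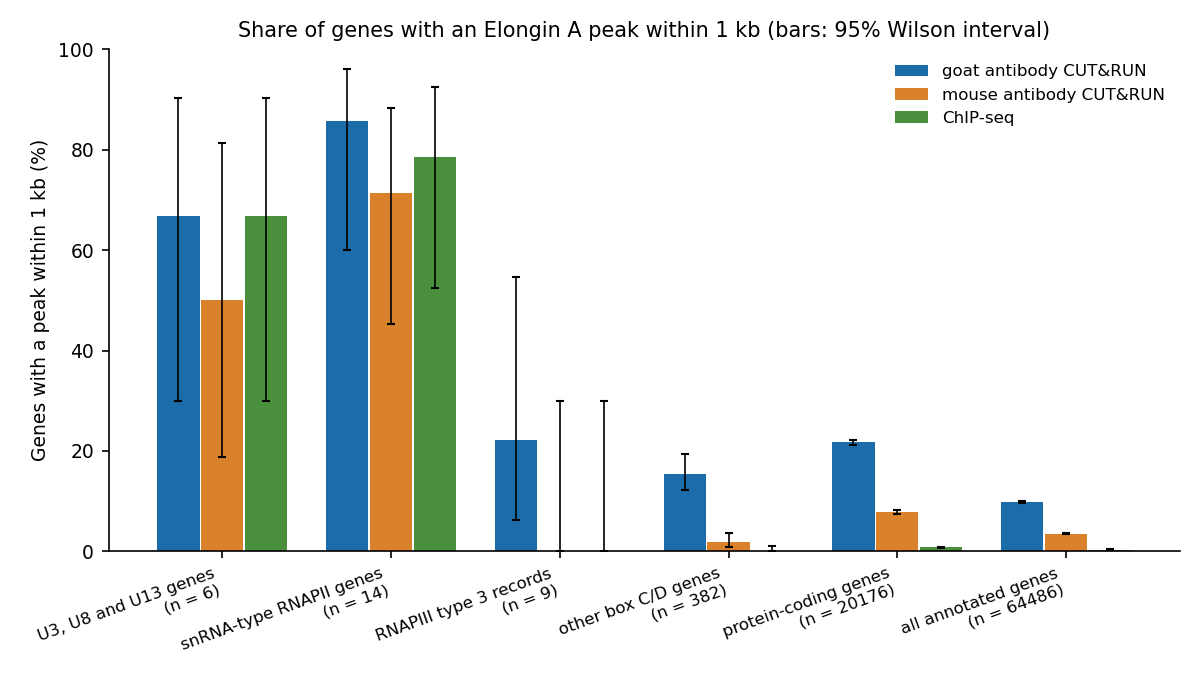
Share of genes with a peak within 1 kb in each list (bars from 0, in percent) for the U3, U8 and U13 genes, snRNA-type RNAPII genes, RNA polymerase III type 3 records, other box C/D snoRNA genes, protein-coding genes and all annotated genes, with 95% Wilson intervals (counting error only). The ChIP-seq bars stand at 66.7% and 78.6% in the leftmost groups and below 1% in the protein-coding genes, other box C/D genes and all genes. The intervals treat genes as independent, although SNORD3B-1 and SNORD3B-2 share their peaks and the U3, U8 and U13 genes were chosen by their peaks.

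By the percentile of fold enrichment in the 3 lists, taken as 0 where no peak was present, the small RNA genes most like the median of the 6 genes (91.4, 49.4 and 56.7) were sought among 5397 candidates. These medians describe no single gene, since in the mouse antibody list 3 of the 6 stood at 0 and 3 at 98.8 or above, and SNORD3B-1 repeats the peak of SNORD3B-2. The measure of likeness was the mean absolute difference over the 3 lists. RNU5D-1 was nearest with a difference of 12.2, at 97.8, 47.3 and 84.9. RNU1-120P, a copy of the U1 gene, followed with 14.7, RNU5F-1 with 18.5, RNU1-60P with 20.3 and RNU4ATAC, the gene of the minor spliceosome U4atac RNA, with 20.5.

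Promoter letters were compared next. SNORD118 and SNORD13 shared a word of 8 bases, TCACCCTA, that began 61 bases before the RNA of U8 and 60 bases before that of U13. It is shown in capitals in 30 bases before U8 (chr17:8076948-8076977, hg19, minus strand, 5′ to 3′).
SNORD118 promoter: gcgttatgaacTCACCCTAgcttgtaacgg

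The word was searched on the gene strand in the 100 bases before each gene and was chosen after it had been seen in these genes. It was held by 63 of all 64486 genes (0.0977%), by 1 of 1452 other snoRNA records, and by none of the U3 genes or the 14 snRNA genes. Only exact matches were counted, so the search cannot show whether those genes hold a similar sequence at this place. The octamer that binds POU2F1 (ATGCAAAT or ATTTGCAT, so both strands) was present within 300 bases before SNORD13, 208 bases from its start, and before none of the other 5 genes. It was found in the same window for 2.38% of all genes, 1.72% of other snoRNA records and 7 of the 14 snRNA genes. The snRNA end box, searched on the gene strand as GTTT, then 0 to 3 bases, then AAANNNAGA, was not present in the 60 bases past the RNA end of any of the 6 genes. It was found for 0.0992% of all genes, 2 of the 1452 other snoRNA records and 6 of the 14 snRNA genes.

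Genes of proteins that act with these RNAs were counted in fixed lists. Their counts stand beside the shares of all protein-coding genes given above, 21.7%, 7.79% and 0.783%. Of the 5 core proteins of box C/D particles, NOP56 and NOP58 had a goat antibody peak and NOP58 and SNU13 a mouse antibody peak. Of 12 assembly and export factors, 5 had a goat antibody peak, namely NCBP1 of the cap-binding complex, the export adaptor PHAX, the ATPases RUVBL1 and RUVBL2 and the exportin XPO1. RUVBL2 alone had a mouse antibody peak, and the assembly factor ZNHIT3 alone a ChIP-seq peak. Of 25 proteins that join U3 on the pre-ribosome, 11 had a goat antibody peak and 3, EMG1, MPHOSPH10 and UTP4, a mouse antibody peak. Of 11 factors of snRNA-type promoters, POU2F1, SNAPC2, SNAPC5, TBP and ZNF143 had a goat antibody peak, and SNAPC2 and SNAPC5 a mouse antibody peak. Of 14 subunits of Integrator, which cleaves the ends of snRNA transcripts, 6 had a goat antibody peak and INTS9 alone a mouse antibody peak. No core protein, U3 processome protein, promoter factor or Integrator gene had a ChIP-seq peak, and no gene of these 5 lists had a peak in all 3 lists. Among all protein-coding genes, 34 of 20176 (0.169%) had a peak in all 3 lists, so few or none would be found in lists of this size.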

How the data were processed

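Elongin A CUT&RUN and ChIP-seq peak lists of DLD1 cells were used, with samples grouped by their titles. Per their methods, the authors mapped read pairs with Bowtie2 in local mode (hg19), dropped PCR duplicates with Picard and ran MACS2 with default settings against IgG or input. The control of the mouse antibody list was taken from the sample titles. Whether the goat antibody replicates were pooled before calling is not given in the sources used here. The deposited fold enrichment is the MACS2 ratio of signal to local background in the control. Of the other deposited columns, the −log10 q-value (at least 1.30 in the goat and mouse antibody lists and 2.06 in the ChIP-seq list) and the summit offset were used, and the score and p-value were not. Depth is unknown. The other samples of the series were not analysed here.

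Gene records were those of GENCODE release 44 in its GRCh37 version (62296 symbols), with duplicate records of a symbol kept, and sequences from GRCh37. RefSeq, on another build, gave RNA lengths and the order of the U3 genes, and the first 217 bases of a U3 record were taken as the RNA. Peaks within 1 kb, ranks by fold enrichment, summit distances from the first base of the RNA along the gene strand (positive downstream), word copies on both strands and motifs were computed in Python 3.11.15 with numpy 2.4.6, pandas 2.3.3, scipy 1.17.1, pysam 0.24.0 and Biopython 1.88. Identities came from global pairwise alignments, as identical bases over the length of the window. Word counting and gene assignment were tested on simulated data, where 87 of 87 planted genes and 100 of 100 planted word counts were recovered. Intervals are Wilson intervals at 95%. The members and gene lists were chosen with earlier results of these data known. Named are the 6 genes, every peak within 1 kb and the nearest outside, genes at those peaks, the 5 most alike small RNA genes and the members of the fixed lists with a peak in all 3 lists. Other genes named where they make up a count, the U3 copy at SNORD3D, the U3 record in TEX14 and the shared word were picked with their values in view. Of the fixed lists, RNU2-1, RNU11, RNU12, RPPH1 and PECAM1 found no record by symbol. Alternatives were other windows, q-value and fold thresholds, ranking by q-value, peak centres, longer words and, added after the data were seen, inclusion of the U3 copy at SNORD3D and overlapping peak positions counted once.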

Additional observations from a re-analysis of the deposited data

How the results depend on the processing

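A window of 500 bp left 3 of the 6 genes in the goat antibody list, 2 in the mouse antibody list and 3 in the ChIP-seq list. Summits within 1 kb gave 3, 3 and 3. A window of 0 bp gave 3, 1 and 3, without SNORD3B-1 and, in the mouse antibody list, SNORD118, whose peaks lie beside them. Counts did not change with a window of 2 kb, q-values under 0.01 and 0.001 or a fold enrichment of at least 5. All ChIP-seq peaks already had a q-value under 0.01. Transcript spans could not change a count, since they equal the gene records. Inclusion of the U3 copy at SNORD3D, added after the data were seen, gave 5, 4 and 4 of 7 genes. Ranking by q-value moved the median percentile to 98.9, 97.8 and 76.9 in the goat antibody, mouse antibody and ChIP-seq lists. Peak centres in place of summits moved the median distance from the RNA start from 351 to 337.5 bp, from 512 to 466 bp and from 297.5 to 309.5 bp. The median distances count the peaks on SNORD3B-2 for SNORD3B-1 too, with summits 1712 to 1925 bp from its start. Summed over the 3 overlapping SNORD3B-2 peaks, 12.5% of positions had a word that occurs once, against 10.5% with each position counted once and 21.8 and 44.5% with words of 50 and 100 bp. No paired analysis was possible because each list gives 1 value for its samples, and no replicate could be left out. With unknown depth and no replicates, the lists cannot show whether a gene without a peak lacks Elongin A.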
